A study of Mus musculus with 6 samples.

Results

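The genes described here are the receptors of retinoic acid and the enzymes that make or remove it: Rara, Rarb and Rarg, Rxra and Rxrb, Cyp26a1 and Cyp26b1, Dhrs3, Rdh10 and Rdh11. They were chosen by name, and all 10 were found among the 40413 genes of the deposited count table. RNA was sequenced from 6 libraries of N2A-A5, a line derived from the mouse neuroblastoma line Neuro-2a that the labels call acceptor cells. The 3 libraries at 0 h came from undifferentiated cells in DMEM with 10% fetal bovine serum (FBS) and blasticidin and with no treatment. The 3 libraries at 96 h came from cells that had spent 96 h in differentiation medium holding 10 µM retinoic acid and 1% FBS, without any blasticidin. Retinoic acid, serum, blasticidin and time therefore changed together and cannot be told apart. The labels and design text do not say whether the line is a single clone. The design text calls the libraries biological replicates.

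Retinoic acid is made from retinol in successive oxidations. Rdh10 oxidises retinol to retinal, retinaldehyde dehydrogenases oxidise retinal to retinoic acid, and Dhrs3 and Rdh11 can reduce retinal back to retinol. The cytochrome P450 enzymes of the Cyp26 family degrade retinoic acid. Inside the nucleus retinoic acid binds the retinoic acid receptors (RAR alpha, beta and gamma), which sit on DNA as heterodimers with a retinoid X receptor (RXR) and exchange corepressors for coactivators when ligand is bound. Rarb, Cyp26a1 and Dhrs3 are widely used as direct targets, and retinoic acid is a standard agent for differentiating neuroblastoma cells in culture.

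The retinoic acid response element is best known as a DR5, a direct repeat of a core of 6 bases (AGGTCA, also with G in the first place and T in the third) with 5 bases between the copies. The stretches upstream of Rarb and Cyp26a1 are shown because both hold a DR5 and both genes were nearly silent in both groups. That of Cyp26b1 is shown because it was the family member with a large rise. The sequences are from RefSeq (GRCm38.p6, an earlier build than the mm39 of the counts) and are read in the direction of the gene, ending at the base before the annotated start. Capitals mark the DR5 in Rarb (chr14:16575477-16575576, minus strand) and Cyp26a1 (chr19:37697708-37697807, plus strand), and a TATAAA in Cyp26b1 (chr6:84593811-84594010, minus strand).
Rarb: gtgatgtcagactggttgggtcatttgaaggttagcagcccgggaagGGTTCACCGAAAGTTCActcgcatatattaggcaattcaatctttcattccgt
Cyp26a1: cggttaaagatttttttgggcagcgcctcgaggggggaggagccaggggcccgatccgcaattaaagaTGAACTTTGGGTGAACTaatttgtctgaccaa
Cyp26b1: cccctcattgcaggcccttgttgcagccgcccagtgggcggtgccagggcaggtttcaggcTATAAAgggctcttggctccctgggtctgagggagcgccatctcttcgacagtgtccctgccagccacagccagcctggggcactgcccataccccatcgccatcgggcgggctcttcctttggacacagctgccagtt

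The Rarb element lay 53 to 37 bases upstream of the start, and the Cyp26a1 element 32 to 16 bases upstream and on the other strand. Read in the direction of the repeat, they were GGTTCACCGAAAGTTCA and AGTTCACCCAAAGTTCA, with the differences G1A and G9C from Rarb to Cyp26a1 (positions from 1 at the 5′ end). A window of 250 bases before to 50 after the start was searched on both strands for the core repeated at a spacing of 1, 2 or 5 bases (DR1, DR2 and DR5). Windows were found for 9 of the 10 genes (18 windows in all, with none for Rdh10). Rarb and Cyp26a1 each had 1 DR5, the other 7 genes had none, and no window of the 9 held a DR1 or DR2. Over 32851 windows of all genes, 0.0974% held a DR5, 0.222% a DR1 and 0.268% a DR2. A TATAAA on the gene's strand lay at 139 to 134 bases upstream of Cyp26b1 and also in the Cyp26a1 window, there past the start and so outside the stretch shown, and 8.32% of all windows held one. These matches describe letters in a short window and not binding.

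At 96 h Cyp26b1 transcripts were several times higher, and the RAR genes had changed places, with Rara lower and Rarg higher. The direct targets Rarb, Cyp26a1 and Dhrs3 had almost no counts in either group. Of the 10 genes, 7 passed the filter on low counts and were tested among 13705 genes with edgeR's quasi-likelihood test. At a Benjamini-Hochberg adjusted p under 0.05, Cyp26b1, Rarg and Rdh11 were higher, Rara and Rxrb lower, and Rxra and Rdh10 did not pass. Of all genes tested, 57.4% passed in either direction, 28.7% higher and 28.8% lower, so 5 of 7 is close to what the comparison gave for genes in general. For the same 5 genes no library of one group fell within the range of the other, as was so for 64.1% of all genes tested. The median log2 fold change of the 7 was -0.04. In bulk RNA fewer cells expressing a gene and less RNA per cell cannot be told apart.

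The libraries held 16.8 M to 20.9 M counts (M for mega). A single predicted gene, Gm26917, took 18.7% to 22.7% of counts at 0 h and 28.7% to 31.7% at 96 h. In a fit without mitochondrial, predicted and small RNA genes, which leaves it out, the same number of the 10 genes were higher (3) and lower (2), with log2 fold changes of 2.49 for Cyp26b1, 0.79 for Rarg and -0.86 for Rara. Levels are given as depth-scaled counts (CPM) on library sizes adjusted by TMM, a factor that assumes most genes do not change. Here 57.4% of genes tested passed, so that assumption is in doubt and levels and fold changes depend on the scaling. Scaling by library size alone moves the log2 fold changes of all genes by a median of -0.25. Neuroblastoma markers summed to between 1726 and 1768 CPM at 0 h and between 1147 and 1202 CPM at 96 h. They included Hand2 (381 ± 13 and 311 ± 6.6 CPM, mean ± SD, n = 3 libraries in each group, as for all means here) and Tubb3 (383 ± 2.6 and 259 ± 4.3 CPM), while Th was under 1 CPM in the mean of both groups. Of 23 markers of fibroblasts, glia, immune, endothelial and epithelial cells, 17 were under 1 CPM in the mean of both groups, with Lum, Aqp4, Aif1 and Krt5 among those at 0 throughout. The fibroblast markers summed to 4.28 to 4.77 CPM at 0 h and 10.5 to 12.2 CPM at 96 h, mostly Pdgfra (2.58 ± 0.47 and 7.96 ± 1.1 CPM). The part of these other cell markers in the changes below was not tested.

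**Figure D1:**
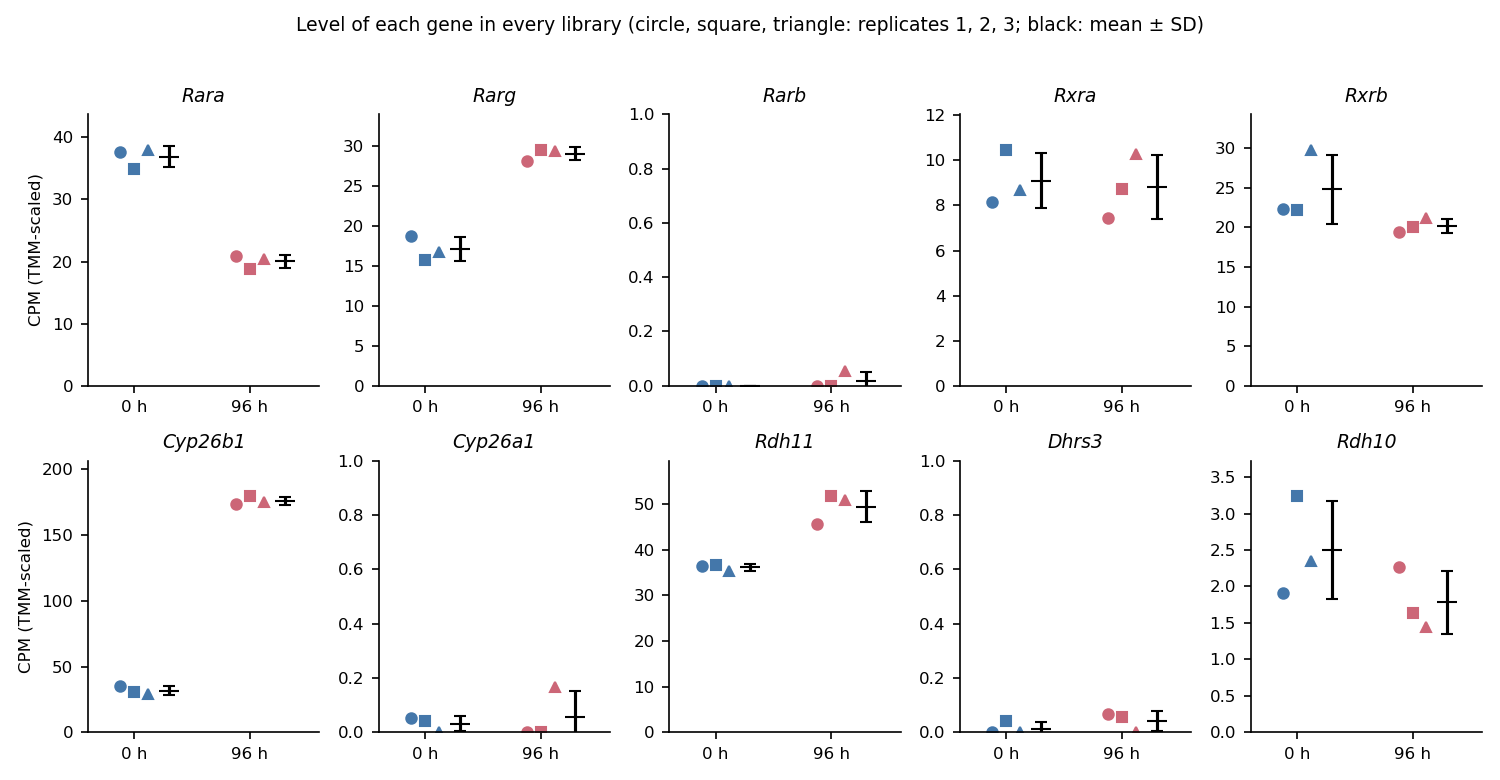
Level of each of the 10 genes in every library, in TMM-scaled CPM on axes that start at 0 and differ between panels, for 0 h (blue) and 96 h (red), with the mean ± SD of 3 libraries in black. Cyp26b1 lies between 28.9 and 35.3 CPM at 0 h and between 173 and 179 CPM at 96 h, Rara and Rarg move in opposite directions, and Rarb, Cyp26a1 and Dhrs3 stay under 0.2 CPM.

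Among the receptors, Rara, the RAR expressed in most tissues, had 37.7, 35.0 and 38.0 CPM at 0 h (replicates 1, 2 and 3) and 20.8, 18.9 and 20.5 CPM at 96 h. Every 0 h library was above every 96 h library. The mean was 36.9 ± 1.7 CPM at 0 h and 20.1 ± 1.0 CPM at 96 h, 1.84-fold lower. The log2 fold change was -0.88 ± 0.08 (SE, with an edgeR adjusted p of 3.16e-07).

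Rarg, which encodes RAR gamma, had 18.7, 15.8 and 16.8 CPM at 0 h and 28.2, 29.6 and 29.5 CPM at 96 h. Here every 96 h library was above every 0 h library. The mean was 17.1 ± 1.5 CPM at 0 h and 29.1 ± 0.77 CPM at 96 h, 1.70-fold higher. The log2 fold change was 0.77 ± 0.08 (edgeR adjusted p = 3.54e-06).

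The opposite moves of Rara and Rarg reversed their order within each library. The ratio of Rarg to Rara counts was 0.497, 0.452 and 0.441 at 0 h and 1.35, 1.57 and 1.44 at 96 h. This ratio does not depend on how libraries are scaled. It was 3.13 times higher at 96 h (log2 difference 1.65) and did not overlap between the groups (exact two-sided permutation p = 0.1, the smallest that 3 libraries against 3 can give, and 0.133 after Benjamini-Hochberg adjustment over the 4 ratios computed here). Per kilobase of exon, Rarg made up 36.9% ± 1.5 of the summed Rara and Rarg level at 0 h and 64.6% ± 1.7 at 96 h. The sum itself was 14.3, 12.8 and 13.8 CPM per kilobase at 0 h and 13.2, 13.1 and 13.5 at 96 h, so the groups overlapped in total (13.7 ± 0.77 and 13.3 ± 0.18, exact two-sided permutation p = 0.4). With scaling by library size only, the sum was 14.9 ± 0.75 at 0 h and 12.1 ± 0.61 at 96 h and no longer overlapped (exact permutation p = 0.1), while the share of Rarg was the same by construction.

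**Figure D2:**
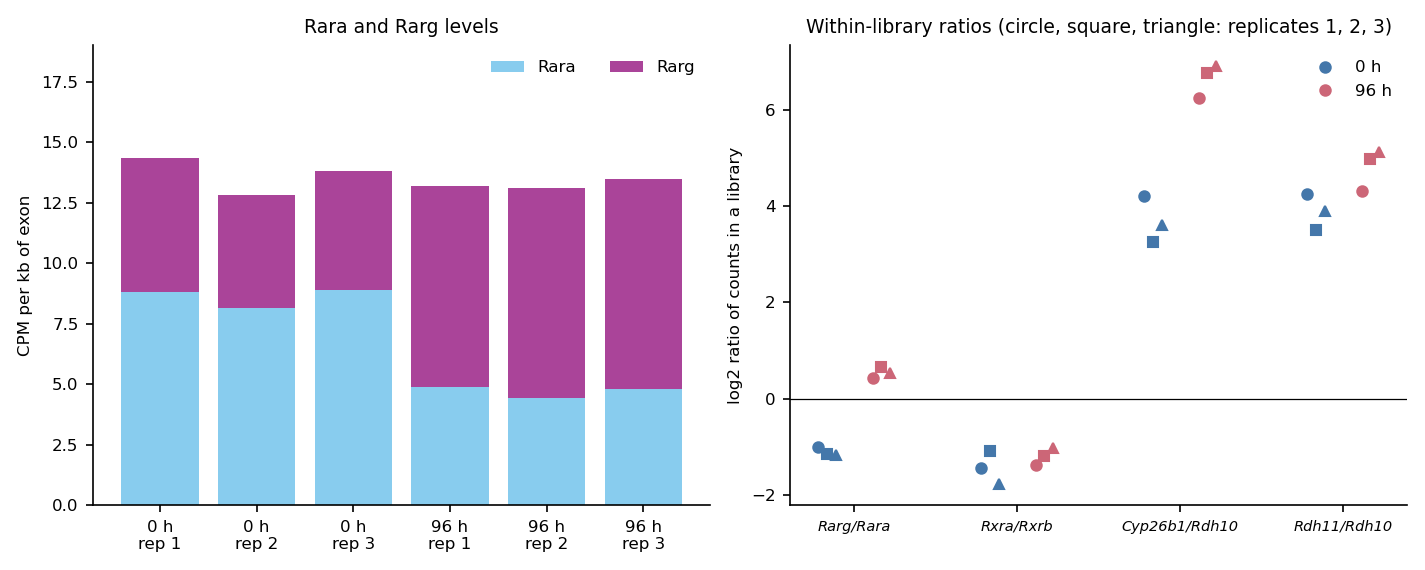
Left, levels of Rara and Rarg stacked for each library, in CPM per kilobase of exon: the totals lie between 12.8 and 14.3 while Rarg grows from 36.9% to 64.6% of the sum. Right, log2 ratio of 2 genes' counts within each library, for 4 pairs: Rarg/Rara, Cyp26b1/Rdh10 and Rdh11/Rdh10 do not overlap between 0 h (blue) and 96 h (red), and Rxra/Rxrb does.

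Rarb, the third RAR gene, had 0 counts in every 0 h library and 0, 0 and 1 at 96 h. On the TMM-adjusted library sizes, a count of 0 over the 0 h group allows a level of up to 0.0484 CPM (3 counts over the group, counting error only). Its exons share 1793 bases with Top2b on the opposite strand (GENCODE M21), which had 10029 and 8199 counts, and no such number appears under Rarb. None of the other genes shared exon bases with another gene in that annotation.

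The RXR genes, whose products pair with the RARs and with several other nuclear receptors, changed little. Rxra had 8.16, 10.5 and 8.67 CPM at 0 h and 7.46, 8.71 and 10.3 CPM at 96 h, with the groups fully intermixed. Its log2 fold change was -0.044 ± 0.16 (95% interval -0.39 to 0.30, edgeR adjusted p = 0.829), and its sign was positive under upper-quartile factors (0.036) and without 0 h replicate 2 (0.063) or 96 h replicate 1 (0.050).

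Rxrb had 22.4, 22.2 and 29.8 CPM at 0 h and 19.4, 20.0 and 21.2 CPM at 96 h. The third 0 h library stood above the rest. The log2 fold change was -0.29 ± 0.11 (edgeR adjusted p = 0.0369), and without 0 h replicate 3 it was -0.15 (adjusted p = 0.153, not passed). The call was also lost without any 1 of the 96 h libraries (adjusted p = 0.109, 0.0829 and 0.0544 without replicates 1, 2 and 3), under limma-voom (0.0628) and under upper-quartile factors (0.118). The ratio of Rxra to Rxrb counts overlapped between the groups, at 0.365, 0.471 and 0.291 and at 0.385, 0.434 and 0.487 (exact permutation p = 0.4). Rxrg, the third RXR gene, had 0 counts in all 6 libraries.

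Of the enzymes that degrade retinoic acid, Cyp26b1 had 684, 728 and 554 counts at 0 h and 2600, 3069 and 3137 at 96 h. In CPM these were 35.3, 31.0 and 28.9 against 173, 179 and 175, a gap many times the spread within either group. The means were 31.8 ± 3.3 and 176 ± 3.2 CPM, a 5.54-fold rise. The log2 fold change was 2.47 ± 0.07 (edgeR adjusted p = 6.65e-12). Over the 16 other settings tried, the log2 fold change ran from 2.22 to 2.55 and the call held in each.

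Cyp26a1, the family member with the DR5 shown above and often the most retinoic acid-inducible, had 1, 1 and 0 counts at 0 h and 0, 0 and 3 at 96 h. All 3 counts at 96 h came from replicate 3. Cyp26c1, the other family member, had none at 0 h and 6 counts at 96 h, all of these in replicate 2. No fold is given for these genes, whose counts are at or near the limit that a count of 0 allows.

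Of the enzymes that act on retinal and retinol, Rdh11, which reduces retinal to retinol, had 36.5, 36.6 and 35.3 CPM at 0 h and 45.6, 51.7 and 50.9 CPM at 96 h. The means were 36.1 ± 0.76 and 49.4 ± 3.3 CPM, a 1.37-fold rise with no overlap. The log2 fold change was 0.45 ± 0.07 (edgeR adjusted p = 5.69e-05). With library size only it did not pass (0.20, adjusted p = 0.0513).

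Rdh10, which makes retinal from retinol, was scarce, with 37, 76 and 45 counts at 0 h and 34, 28 and 26 at 96 h. In CPM these were 1.91, 3.24 and 2.35 against 2.26, 1.64 and 1.45, and the groups overlapped. The log2 fold change of -0.50 ± 0.32 did not pass (95% interval -1.18 to 0.18, edgeR adjusted p = 0.195), an interval that includes both a fall of more than 2-fold and a small rise. Dhrs3, another retinal reductase and a common retinoic acid target, had 0, 1 and 0 counts at 0 h and 1, 1 and 0 at 96 h. Without the filter none of Rarb, Cyp26a1 and Dhrs3 passed edgeR's test (adjusted p = 0.521, 0.792 and 0.726), none had an unadjusted p under 0.05, and DESeq2 gave them no adjusted p (unadjusted p = 0.762, 0.769 and 0.711).

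Set against Rdh10 in the same library, the degrading and the reducing enzyme both gained. The ratio of Cyp26b1 to Rdh10 counts was 18.5, 9.58 and 12.3 at 0 h and 76.5, 110 and 121 at 96 h, 7.74 times higher. The ratio of Rdh11 to Rdh10 was 19.1, 11.3 and 15.0 at 0 h and 20.1, 31.6 and 35.2 at 96 h, 1.90 times higher, with 96 h replicate 1 close to 0 h replicate 1. Neither ratio overlapped between groups (exact permutation p = 0.1 for each, 0.133 adjusted), and both rest on the low counts of Rdh10.

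Per kilobase of exon, the 7 tested genes stood in a different order in the 2 states. At 0 h Rdh11 was highest (10.5 ± 0.22 CPM per kilobase), then Rara (8.62 ± 0.39), Rxrb (8.58 ± 1.5), Cyp26b1 (5.93 ± 0.61), Rarg (5.04 ± 0.44), Rxra (1.78 ± 0.24) and Rdh10 (0.697 ± 0.19). Rara and Rxrb, and Cyp26b1 and Rarg, overlapped in that order. At 96 h Cyp26b1 was highest (32.8 ± 0.60 CPM per kilobase), then Rdh11 (14.3 ± 0.97), Rarg (8.56 ± 0.23), Rxrb (6.99 ± 0.31), Rara (4.69 ± 0.25), Rxra (1.73 ± 0.28) and Rdh10 (0.497 ± 0.12), with no neighbours overlapping. Taking the longest coding transcript as the length left both orders as they were, though at 0 h Rdh11 and Rara then overlapped.

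Other genes of retinoid handling, from lists chosen by function but with earlier results of these data known, moved in both directions. Of 12 genes of retinoid binding and uptake, 3 were tested, with 2 higher and 1 lower. Over all genes tested 57.4% passed (28.7% higher and 28.8% lower), and 3 genes are too few to set against that share. Rbp4, the plasma carrier of retinol, rose (7.79 ± 0.85 to 16.6 ± 1.5 CPM, log2 fold change 1.08 ± 0.13), as did Stra6, a membrane receptor for retinol bound to Rbp4 (2.12 ± 0.10 to 4.37 ± 0.97 CPM, 1.04 ± 0.25). Fabp5, a fatty acid binding protein that also carries retinoic acid, fell (145 ± 5.4 to 114 ± 11 CPM, -0.35 ± 0.06). The retinoic acid carrier Crabp1 had 0 counts in all libraries, and Crabp2, which delivers retinoic acid to RARs, totalled 5 and 9 counts. The median over all genes tested, the value these lists can be read against, was a log2 fold change of 0.03.

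Of 28 genes of retinoid oxidation and storage, 11 were tested, of which 4 were higher and 1 lower (3 and 2 under library-size scaling), with a median log2 fold change of 0.13. Over all genes tested 28.7% were higher and 28.8% lower, so the higher share is near that of genes in general. Dhrs7, a short-chain dehydrogenase, rose (6.55 ± 0.45 to 28.6 ± 1.0 CPM, log2 fold change 2.13 ± 0.10), and so did Bco1, which cleaves beta-carotene to retinal (3.58 ± 0.37 to 13.6 ± 1.5 CPM, 1.92 ± 0.16), and Lipe, a lipase that can hydrolyse retinyl esters (1.62 ± 0.37 to 4.67 ± 0.69 CPM, 1.52 ± 0.26). Dhrs4, another dehydrogenase of the family, fell (11.3 ± 1.1 to 8.13 ± 0.35 CPM, -0.48 ± 0.13).

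The retinaldehyde dehydrogenases, which make retinoic acid itself, were scarce. Aldh1a1 totalled 7 counts at 0 h and 1 at 96 h. Aldh1a2 totalled 3 and 4. Aldh1a3 had 8, 8 and 3 counts at 0 h and 18, 11 and 14 at 96 h, and passed (edgeR adjusted p = 0.0288). Its call was lost without 0 h replicate 2 (adjusted p = 0.0676), 0 h replicate 3 (0.0925), 96 h replicate 1 (0.150) or 96 h replicate 3 (0.0682), without the filter (0.0817), with DESeq2 (0.0948) and with library size only (0.0641). Adh7, a retinol-oxidising alcohol dehydrogenase singled out after its values were seen, had 3, 11 and 9 counts at 96 h against 0 throughout at 0 h. It passed without the filter (edgeR adjusted p = 4.03e-04).

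**Figure D3:**
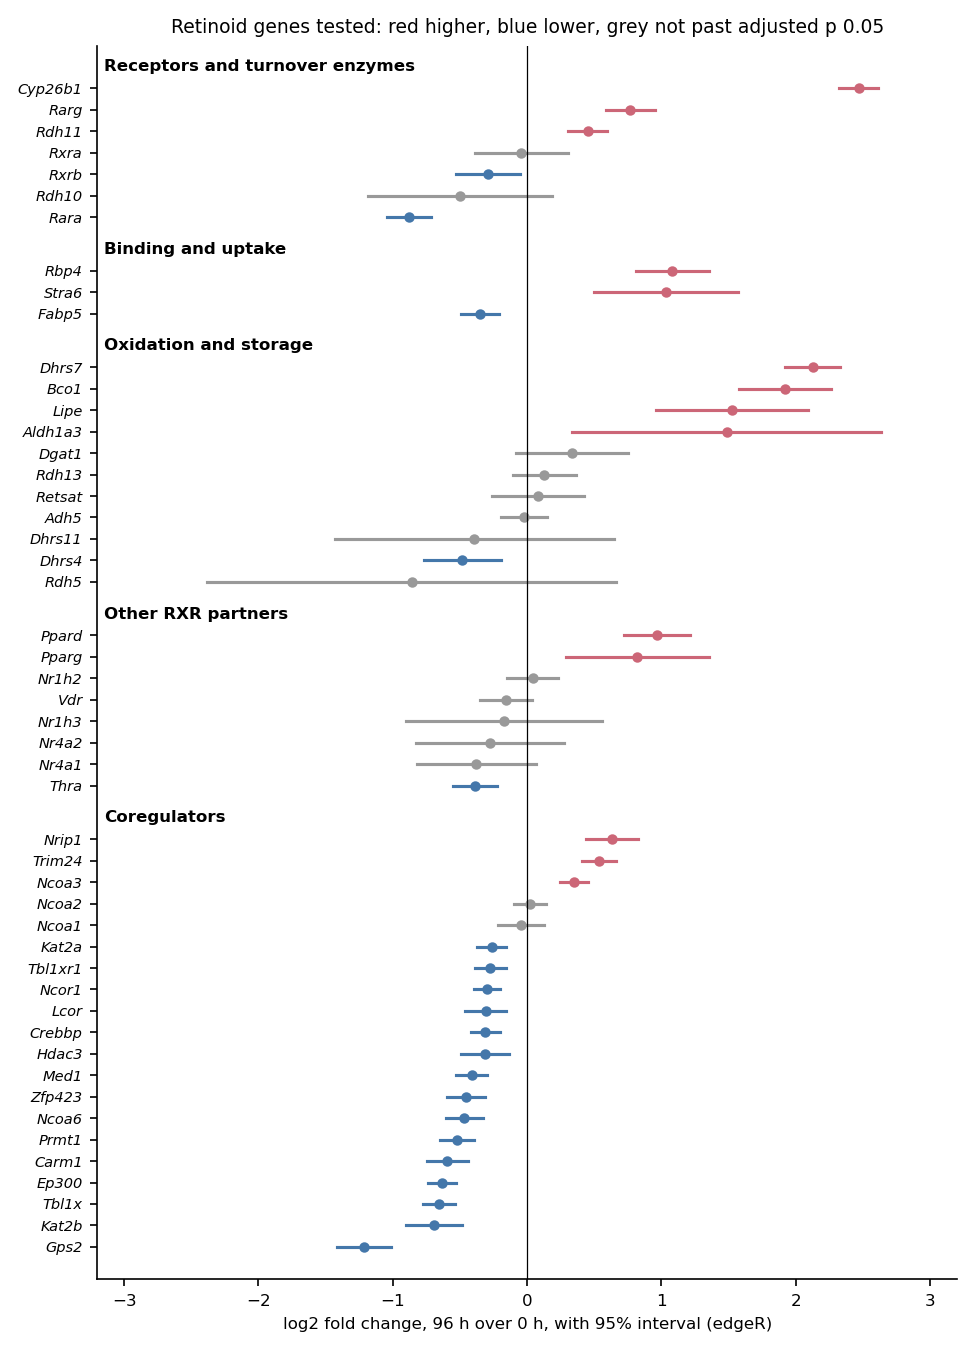
Log2 fold change of tested genes, 96 h over 0 h, with the 95% interval from edgeR, for the receptors and turnover enzymes and for 4 lists of related genes, with higher in red, lower in blue and not passed in grey. Cyp26b1 (2.47) and Dhrs7 (2.13) lie far to the right, and most of the coregulators drawn lie to the left of 0 in blue.

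The coregulators through which the receptors act, a list also chosen with earlier results known, were mostly lower at 96 h. Of 21 genes, all tested, 16 were lower and 3 higher (18 and 2 under library-size scaling, 16 and 3 under upper-quartile factors), against 28.8% lower and 28.7% higher over all genes tested, with a median log2 fold change of -0.32. Lower members came from both sides of the receptors' switch. On the corepressor side Gps2, a subunit of a corepressor complex, fell from 48.2 ± 5.0 to 20.8 ± 1.9 CPM (log2 fold change -1.21 ± 0.09). On the coactivator side Ep300, a histone acetyltransferase, fell from 220 ± 6.1 to 142 ± 6.8 CPM (-0.63 ± 0.05). The 3 higher members were Trim24 (0.53 ± 0.06), Nrip1 (0.63 ± 0.09), a ligand-dependent corepressor, and Ncoa3 (0.35 ± 0.05), a p160 coactivator that did not pass with library size only (0.10, adjusted p = 0.170).

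Other receptors that pair with RXR, or bind similar elements, mostly did not pass. Of 8 tested partners of RXR, Ppard, a fatty acid receptor, rose (9.04 ± 0.27 to 17.7 ± 1.9 CPM), Pparg rose from a low level (4.05 ± 1.4 to 7.14 ± 1.1 CPM) and Thra, a thyroid hormone receptor, fell (64.0 ± 7.0 to 48.9 ± 0.81 CPM), where library-size scaling gave 1 higher and 3 lower. The call of Pparg was lost with library size only (adjusted p = 0.0571) and without 96 h replicate 3 (0.0581). Of 8 tested orphan receptors on similar elements, 1 was higher and 1 lower, where that scaling gave 1 and 3. For both lists the share to read against is that of all genes tested, of which 57.4% passed (28.7% higher and 28.8% lower). The lower one was Nr2f2, COUP-TFII (87.2 ± 5.0 to 59.2 ± 4.2 CPM, log2 fold change -0.56 ± 0.07).

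Of 20 genes described elsewhere as responsive to retinoic acid, 10 were tested, with 4 higher and 3 lower (3 and 4 under library-size scaling) and a median log2 fold change of 0.32. Over all genes tested 28.7% were higher and 28.8% lower, so these counts are close to those of genes in general. The homeobox gene Meis1 rose (18.1 ± 1.5 to 35.8 ± 1.8 CPM), as did Zfp703 (6.53 ± 0.95 to 13.6 ± 0.79 CPM) and Tshz1 (10.3 ± 0.74 to 17.7 ± 0.74 CPM). Ret (log2 fold change -0.98 ± 0.04) and Isl1 (-0.37 ± 0.08) fell. The 10 untested genes had at most 1 count at 0 h and 5 at 96 h, among them Hoxb1 and Stra8.

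Among the tested genes whose log2 CPM profile over the 6 libraries was closest to that of Cyp26b1, by root mean square distance after centring, were Ccnjl (0.09), F5 (0.10), Gpr85 (0.11) and Pygl (0.12). Closest to Rara were H2bc22 (0.02), Snrpb (0.03), Atad5 (0.03), Plcb4 (0.04) and Rabl6 (0.04), and closest to Rarg were Mroh6 (0.04), Serinc5 (0.04), Arhgap12 (0.05), Asah1 (0.05) and Map3k10 (0.05). These 6 points fall into 2 groups, so likeness here is mostly an equal difference between the groups. H2bc22 is a histone gene with near-identical copies and its counts are uncertain.

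**Figure D4:**
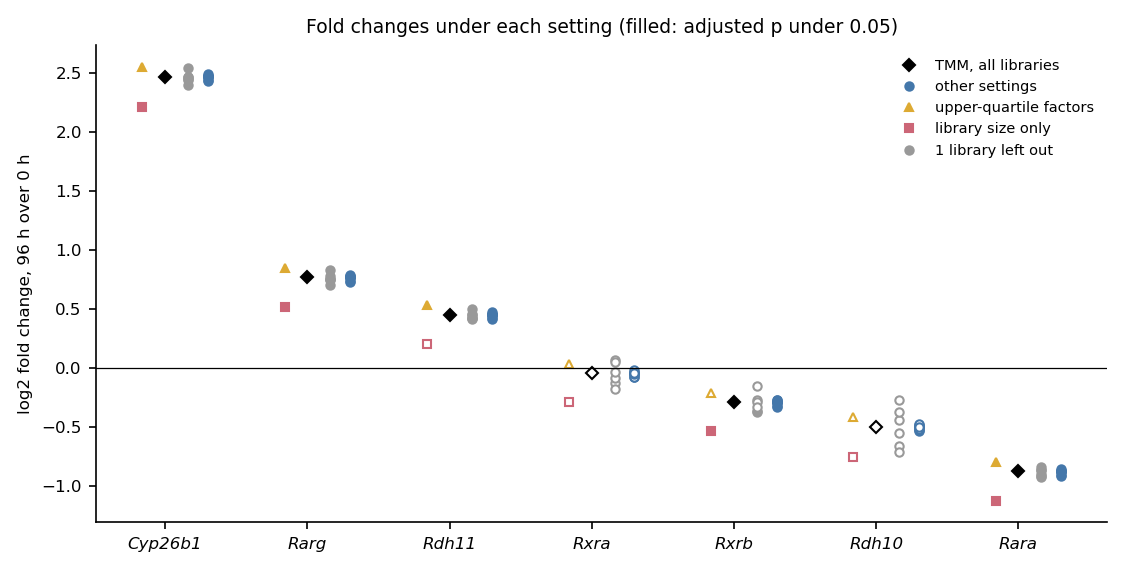
Log2 fold change of the 7 tested genes under each setting, with filled symbols where the adjusted p is under 0.05. Scaling by library size only (red squares) lowers every gene by about the same amount and takes Rdh11 to 0.20, and Rxrb has open symbols for 4 of the 6 fits with 1 library left out (grey).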

How the data were processed

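Stranded libraries were made after removal of ribosomal RNA and read as paired ends, per the labels' protocols. The tools named in the submitters' processing notes are Salmon 1.10.1, FastQC 0.12.1 and DESeq2 1.52.0, and the build named is mm39. Not given in the sources used here are the annotation, the strand setting and what each tool did. The authors' deposited values are estimated counts per gene (expected counts, not scaled), and 7.07% of them are not whole (tolerance 0.01).

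Counts were rounded and compared with edgeR 4.0.16 (R 4.3.3): filterByExpr, TMM factors, quasi-likelihood F test, Benjamini-Hochberg over 13705 genes. The fit was run on simulated counts in which few genes changed, in equal numbers up and down. In these data 57.4% of genes tested passed, so that run does not test the scaling used here. Standard errors are the log2 fold change divided by the square root of F. Ratios within libraries were compared with exact permutation tests (SciPy 1.17.1). P-values measure the spread between these libraries. Lengths are unions of exons in GENCODE M21 (GRCm38) and promoter windows are from RefSeq, both matched by symbol. No pair of libraries in a group agreed within sampling noise (chi-square per degree of freedom 6.79 to 13.9).

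The genes described and the gene lists were chosen with earlier results of these data known. Named beside the 10 genes are up to 3 higher and 3 lower genes of each list by adjusted p, list genes near 0 counts, and the 5 genes closest in profile to Cyp26b1, Rara and Rarg. A few genes it would name are not reported here. Alternatives were other scalings, filters and tools (DESeq2 1.42.0, limma-voom 3.58.1), a block for the replicate number and each library left out. Counts not rounded and both alternatives for the summed Rara and Rarg level were added after seeing the data.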

Additional observations from a re-analysis of the deposited data

How the results depend on the processing

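Over 16 other settings, Rara (log2 fold change -1.13 to -0.80), Rarg (0.52 to 0.85) and Cyp26b1 (2.22 to 2.55) kept their calls and directions, and Rdh10 passed in none (adjusted p 0.0520 to 0.550). Rdh11 was called in 15. Rxrb was called in 10, with a log2 fold change from -0.54 to -0.15, and Rxra turned positive in 3: under upper-quartile factors (0.036) and, in a range of -0.18 to 0.063 with 1 library left out, without 0 h replicate 2 (0.063) and without 96 h replicate 1 (0.050). The count of lower genes was 1 in place of 2 under limma-voom and under upper-quartile factors, and 1 to 2 with 1 library left out. Wherever it was 1, the gene that lost its call was Rxrb, while Rara stayed lower. The cause was not tested. The count of higher genes was 2 with library size only and 3 in each other setting. With library size only, the difference of the summed Rara and Rarg level was -2.75 in place of -0.41 CPM per kilobase, and with the longest coding transcript as the length it was -0.92 (exact permutation p = 0.3). Of 66 other genes that were named or called in a list, 59 kept their calls in every setting and 7 lost them in at least 1.

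The replicate number as a block left 3 genes higher and 2 lower and, over all genes, 3854 higher and 3858 lower in place of 3927 and 3942. Deviations of libraries with the same number correlated at 0.03, 0.07 and 0.06 across genes, and each library correlated best with its own number, a hint from the data only. For the 4 ratios the sign-flip test over the 3 pairs cannot go below 0.25. Depth limits Rdh10 and, most of all, Rarb, Cyp26a1 and Dhrs3, for which changes below a few counts per library could not be seen.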

Other observations

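A DR5 in the promoter window was found for 31 genes of 27025 with a window, of which 29 were in the count table and 6 were tested. Of these 6, 2 were higher at 96 h and 4 did not pass (edgeR), against 28.7% higher among all genes tested. The 2, named after their values were seen, were Tnfsf13b, a cytokine gene (1.85 to 5.86 CPM, log2 fold change 1.65 ± 0.23), and Syndig1, a gene of excitatory synapses (36.1 to 59.7 CPM, 0.72 ± 0.20). The call of Syndig1 was lost with library size only and with DESeq2 (adjusted p = 0.0541 and 0.0923). The other genes of the 31 that were in the table were, like Rarb and Cyp26a1, too low to be tested, with at most 17 counts at 0 h and 23 at 96 h (Prokr2).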
